A study of Caenorhabditis elegans with 60 samples.

Results

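Gene expression of whole nematodes grown at 2 g/L hexafluoropropylene oxide dimer acid (HFPO-DA), a fluorinated acid used in polymer manufacture, was compared directly with that of nematodes grown at 1 g/L, so that a single doubling of the concentration was read without unexposed worms in the test. The members were taken from the sample titles and no measured value was used: 4 libraries at 2 g/L and 4 at 1 g/L, 8 of 60 libraries. All were Caenorhabditis elegans of the wild-type strain N2 (Bristol), exposed as synchronised first-stage larvae and collected whole after 48 h, and both groups therefore carried HFPO-DA and differed in its concentration. All wells also shared S Medium with streptomycin and nystatin, and E. coli HB101 as food. Each library came from 1 well of about 1000 pooled worms. No label states that the replicate wells go back to different cultures, and a p-value here reflects well-to-well spread, which may be technical. The groups at 0.5 g/L and 4 g/L and the control without HFPO-DA, with 4 libraries each, are used for levels on either side of the doubling and for the tests between doublings.

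Worms clear foreign compounds in successive steps, mainly in the intestine. Cytochrome P450 enzymes oxidise the compound, UDP-glucuronosyltransferases (UGT) and glutathione S-transferases (GST) attach a sugar or glutathione, and ABC transporters of the cell membrane export products. Many genes of these families lie in tandem clusters of similar copies.

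Values are the deposited normalised expression values, on a linear scale and not corrected for gene length, so that levels of different genes are not compared. A gene without reads has a value of about 2.5, which makes folds of genes with few reads smaller on this scale than in the reads, and reads recovered from the values are given beside such genes. Libraries held 1487013 to 1694730 reads at 2 g/L and 970896 to 1928296 reads at 1 g/L. The first principal component, 33.4% of the variance over the 8 libraries, did not separate the groups: scores for replicates 1 to 4 were -2.9, 7.1, -21.1 and 29.0 at 2 g/L, and -16.1, 4.4, -26.5 and 26.1 at 1 g/L. On the second, 16.6% of the variance, they were 0.2, 22.0, 0.8 and 8.7 at 2 g/L, and -11.2, 9.3, -3.1 and -26.7 at 1 g/L, and the groups overlapped there too. Within each replicate number, both scores were higher at 2 g/L. Defining markers of intestine, muscle, pharynx, neurons, hypodermis, germ line, oocytes and sperm were detected in all 8 libraries, none was called changed, and dpy-7 was not analysed here. In whole worms, fewer cells of a type and less RNA per cell cannot be told apart.

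Few genes passed the test. Of 10106 genes tested, 6 were called higher at 2 g/L (0.0594%) and 1 was called lower (0.0099%), by limma at an adjusted p under 0.05, together 0.0693%. The risen genes were cyp-13A4, cyp-13A6 and cyp-13A7, the UGT gene ugt-62, the apyrase gene apy-1 and ZK742.3, and the gene that fell was C17F4.7. With the replicate number added to the fit as a block, the same libraries gave 29 calls, including the 7. Genes given as not called are so in the fit without this block. For each of the 7, the 4 values at 2 g/L did not overlap the 4 at 1 g/L. The calls were made on these same values, so the lack of overlap adds nothing to them. Of all tested genes, 1.39% had no overlap in the higher direction and 1.15% in the lower. The median gene differed by 0.01 (log2, quartiles -0.11 and 0.16). A fitted rise of at least 2-fold was found for 32 genes and a fall of that size for 5. Of the 32 genes, 4 were P450 genes, 8 were collagens (3 of the body-shape group and 5 named col), 2 were UGT genes, and cdr-1, lbp-8, pgp-1 and gst-8 came from other lists.

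**Figure D1:**
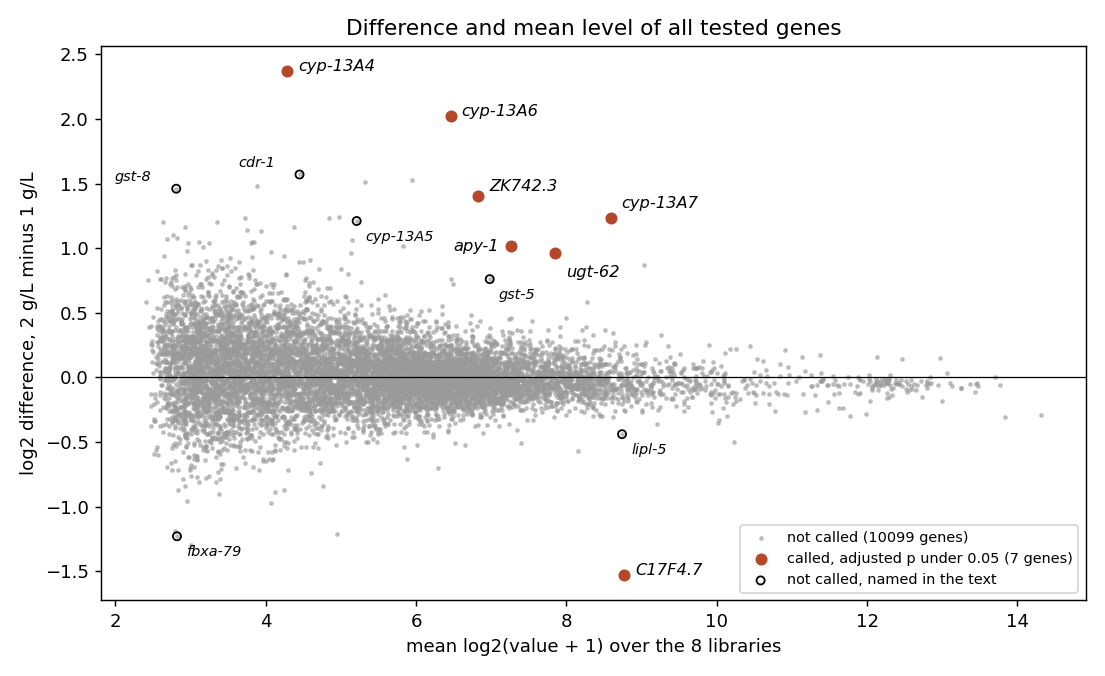
Log2 difference (2 g/L minus 1 g/L, vertical axis) against the mean log2(value + 1) of the 8 libraries (horizontal axis) for all 10106 tested genes. Filled points are the 7 called genes. Open circles are gst-8, cdr-1, cyp-13A5, gst-5, lipl-5 and fbxa-79, which were not called, and all other genes not called are grey. The 7 called genes lie outside the band of genes with a like mean level, 6 above it and C17F4.7 below it.

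Among the called genes, the cytochrome P450 genes cyp-13A4 and cyp-13A6 had the largest differences. Their products are enzymes that oxidise lipophilic compounds. The genes cyp-13A4 (chromosome II, 9795756 to 9797740, WBcel235, minus strand), cyp-13A5 (9798277 to 9800362, minus), cyp-13A6 (9800758 to 9802821, minus) and cyp-13A7 (9803620 to 9805513, plus) follow each other on the chromosome. They are similar copies, and no source used here gives how reads matching several copies were counted, so the split of reads among them is uncertain.

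The gene cyp-13A4 had values of 29.9, 60.5, 41.9 and 46.5 in replicates 1 to 4 at 2 g/L, against 6.47, 8.09, 8.92 and 7.10 at 1 g/L. The lowest well at 2 g/L was well above the highest at 1 g/L. The difference was 2.37 ± 0.25 (log2, SE, n = 4 each; limma adjusted p = 0.000418). In reads, 179 at 2 g/L stood against 22 at 1 g/L, a ratio of 7.29 after scaling by depth (95% counting interval 4.67 to 11.9, counting error only).

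The gene cyp-13A6 had values of 124, 246, 172 and 181 at 2 g/L, against 46.2, 50.2, 42.1 and 33.6 at 1 g/L, again without overlap. Its difference was 2.02 ± 0.19 (log2, SE, n = 4 each; limma adjusted p = 0.000274), and its ratio in reads was 4.25 (counting interval 3.58 to 5.07).

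The gene cyp-13A7 had values of 543, 680, 558 and 586 at 2 g/L, against 253, 355, 230 and 193 at 1 g/L, a difference of 1.23 ± 0.16 (log2, SE; limma adjusted p = 0.00334). The wells at 2 g/L were close together, with a mean of 592 ± 61.4, against 258 ± 69.5 at 1 g/L (SD, n = 4 each). The neighbour cyp-13A5 had 38.7, 76, 51.3 and 61.6 at 2 g/L, against 18.7, 36.2, 17.8 and 24.3 at 1 g/L. These values did not overlap either, and its difference of 1.21 ± 0.25 (log2, SE) was not called in the 8 libraries (limma adjusted p = 0.167).

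At 2 g/L, replicate 1 was the lowest and replicate 2 the highest for each of the 4 neighbours. At 1 g/L the lowest well was replicate 1 for cyp-13A4, 3 for cyp-13A5 and 4 for the other two, and the highest was replicate 3 for cyp-13A4 and 2 for cyp-13A5, cyp-13A6 and cyp-13A7. The next measured gene of the group, cyp-13A2, had 6.07 ± 2.60 at 2 g/L and 6.19 ± 2.40 at 1 g/L (SD, n = 4 each), a difference of -0.03 ± 0.36 (log2, SE), from 17 reads at 2 g/L and 14 at 1 g/L. It lies at 9783384 to 9787629 on the same chromosome.

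No P450 gene other than cyp-13A4, cyp-13A6 and cyp-13A7 was called. Of 34 measured P450 genes, 30 passed the filter on low values. Of these, 3 were called higher and 0 lower, against 0.0594% and 0.0099% of all tested genes. The median difference of the 30 was 0.09, against 0.01 for all genes. Groups did not overlap in the higher direction for 8 of the 30 P450 genes, against 1.39% of all tested genes, and for none in the lower, against 1.15%. Besides the 4 neighbours these were cyp-33C2, cyp-33E2, cyp-33E3 and cyp-34A8. The largest of the 4, cyp-33E2, had 12.0 ± 2.18 at 2 g/L and 6.67 ± 2.16 at 1 g/L (SD, n = 4 each), a difference of 0.79 ± 0.28 (log2, SE) that was not called. The P450 gene with the largest negative difference, cyp-25A1, had 4.81 ± 1.59 and 9.24 ± 3.30 at these concentrations, and was not called.

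Summed over the 30 P450 genes, the 4 libraries at 2 g/L held 1290 to 1598, against 707 to 955 at 1 g/L, and the groups did not overlap. Without cyp-13A4 to cyp-13A7, the other 26 genes summed to 522 ± 42.2 at 2 g/L and 507 ± 41.8 at 1 g/L (SD, n = 4 each), a difference smaller than the spread between wells. The same 26 genes summed to 548 ± 52.8 in the control, 536 ± 25.0 at 0.5 g/L and 546 ± 57.1 at 4 g/L.

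**Figure D2:**
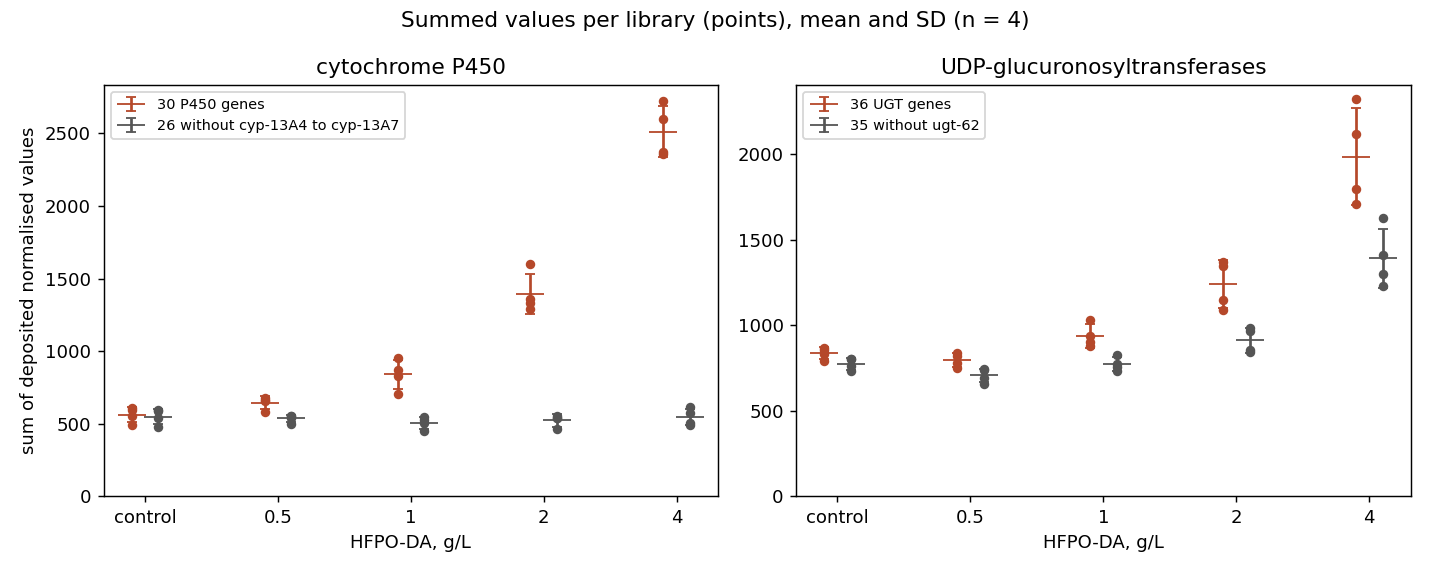
Sum of deposited values per library (vertical axis, linear from 0) for P450 genes (left panel) and UGT genes (right panel) in the control and at 4 further concentrations; points are libraries, horizontal marks are means and bars are the SD (n = 4). The sum of the 30 P450 genes was 1290 to 1598 at 2 g/L and 707 to 955 at 1 g/L, while the means of the 26 genes other than cyp-13A4 to cyp-13A7 were 507 to 548 over the 5 levels.

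Of the conjugating enzymes, 1 gene was called. The gene ugt-62 (chromosome III, 4537281 to 4540623, minus strand) had values of 290, 404, 247 and 363 at 2 g/L, against 145, 207, 146 and 163 at 1 g/L. All 4 wells at 2 g/L were above all 4 at 1 g/L. The difference was 0.96 ± 0.16 (log2, SE; limma adjusted p = 0.0396), which was the smallest among the called genes. It was no longer called without 2 g/L replicate 1 (adjusted p = 0.112), 2 (0.218) or 4 (0.104), or without 1 g/L replicate 1 (0.297), 3 (0.167) or 4 (0.0914). The difference then lay between 0.85 and 1.01.

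Of 37 measured UGT genes, 36 were tested. Of these, 1 was called higher and 0 lower, against 0.0594% and 0.0099% of all tested genes. The median difference of the 36 was 0.15. Groups did not overlap for 4 of them, all in the higher direction (1.39% of all tested genes): ugt-15, ugt-19, ugt-61 and ugt-62. The gene ugt-19 had 40.8, 92.0, 67.1 and 77.1 at 2 g/L, against 24.5, 31.7, 31.7 and 10.5 at 1 g/L, a difference of 1.51 ± 0.32 (log2, SE; limma adjusted p = 0.171). The gene ugt-15 was near the detection limit, with 27 reads at 2 g/L and 3 at 1 g/L. The gene ugt-61 had 51.3 ± 24.7 at 2 g/L and 24.8 ± 6.61 at 1 g/L (SD, n = 4 each), also not called. An unadjusted p under 0.05 in the higher direction was found for 9 of the 36, against 2.22% of all tested genes. Besides these 4 they were ugt-1, ugt-11, ugt-53, ugt-58 and ugt-63, with overlapping groups and differences of 0.51 to 0.87 (log2). In the other direction, ugt-31 had 4.30 ± 0.838 at 2 g/L and 8.16 ± 3.44 at 1 g/L. The 35 UGT genes other than ugt-62 summed to 844 to 982 at 2 g/L, against 731 to 825 at 1 g/L, and these sums did not overlap.

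No GST gene was called among 26 tested of 27 measured, and their median difference was 0.08. Those with the smallest p lay in both directions. The gene gst-8 had 7.41, 13.6, 11.2 and 11.2 at 2 g/L, against 2.74, 3.80, 2.78 and 3.66 at 1 g/L, which are values close to those of a gene without reads. Its reads numbered 37 at 2 g/L and 4 at 1 g/L, a scaled ratio of 8.29 (counting interval 2.98 to 32.0), and its difference was 1.46 ± 0.28 (log2, SE; limma adjusted p = 0.115). The gene gst-5 had 162, 186, 130 and 184 at 2 g/L, against 99.0, 101, 75.6 and 113 at 1 g/L, a difference of 0.76 ± 0.16 (adjusted p = 0.167). In the opposite direction gst-29 had 12.0, 11.4, 12.3 and 11.6 at 2 g/L, against 21.7, 32.3, 19.5 and 19.8 at 1 g/L, a difference of -0.89 ± 0.23 (adjusted p = 0.653). These 3 genes were picked for a small p, so the lack of overlap of their groups adds nothing. Of the 26 GST genes, 2 had no overlap in the higher direction (1.39% of all tested genes) and 1 in the lower (1.15%). The gene gst-8 passed the filter on low values only through its wells at 2 g/L. The GST gene with the highest mean, gst-1, had 301 ± 28.1 at 2 g/L and 356 ± 42.6 at 1 g/L with overlap.

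Export and other handling genes gave no calls. Of 35 ABC transporter genes tested, 0 were called in either direction by limma, and the median was 0.05. An unadjusted p under 0.05 was found for 1 in each direction, against 2.22% of all tested genes higher and 1.12% lower. The P-glycoprotein gene pgp-1 was the only one of the 35 without overlap, against 1.39% of all tested genes in the higher direction. Its values were 8.21, 24.9, 15.1 and 13.9 at 2 g/L, against 6.11, 5.71, 4.4 and 7.02 at 1 g/L. It had 56 reads at 2 g/L and 13 at 1 g/L, and a difference of 1.20 ± 0.31 (log2, SE; limma adjusted p = 0.653). The gene pgp-9, with the highest mean of the list, had 243 ± 69.7 at 2 g/L and 202 ± 41.0 at 1 g/L. Lists of flavin monooxygenases (5 genes tested), short-chain dehydrogenases (26), alcohol and aldehyde dehydrogenases (13) and carboxylesterases (20) held no called gene, with medians of -0.13, -0.01, 0.02 and 0.11. The cadmium-responsive gene cdr-1 had 20.7, 41.9, 43.9 and 46.7 at 2 g/L, against 9.32, 20.0, 6.76 and 14.3 at 1 g/L. The lowest well at 2 g/L was just above the highest at 1 g/L, and the difference of 1.57 ± 0.33 was not called (adjusted p = 0.167). The metallothionein gene mtl-2, also a responder to metals, had 125 ± 12.2 at 2 g/L and 129 ± 37.9 at 1 g/L.

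Outside these families, apy-1 and ZK742.3 rose. The product of apy-1, an apyrase, splits nucleoside diphosphates and is linked to protein folding in the endoplasmic reticulum. It (chromosome X, 7568141 to 7569722, minus strand) had values of 195, 249, 178 and 259 at 2 g/L, against 98.3, 132, 87.4 and 113 at 1 g/L, without overlap. The difference was 1.02 ± 0.16 (log2, SE; limma adjusted p = 0.0198). It was not called without 2 g/L replicate 1 (adjusted p = 0.0673), 2 (0.175) or 4 (0.0581), or without 1 g/L replicate 1 (0.147) or 3 (0.0765), and the difference then lay between 0.93 and 1.08. The list of endoplasmic reticulum stress genes held no call among 20 tested, and its median was 0.01.

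The gene ZK742.3 (chromosome V, 7808367 to 7809912, minus strand) had values of 169, 181, 156 and 238 at 2 g/L, against 63.9, 90, 51.5 and 75.4 at 1 g/L. Each well at 2 g/L was above each well at 1 g/L, and the difference was 1.40 ± 0.18 (log2, SE; limma adjusted p = 0.00334). The gene lies inside xpo-1, a nuclear export receptor gene on the other strand, and no source used here says whether counting used strand. The value of xpo-1 was 153 at 2 g/L and 163 at 1 g/L, a difference of -0.09 ± 0.12. In the same way, apy-1 overlaps the end of vps-52, which had 9.01 at 2 g/L and 6.5 at 1 g/L.

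The single gene that fell was C17F4.7 (chromosome II, 3245087 to 3246015, minus strand). It had values of 267, 161, 339 and 292 at 2 g/L, against 1003, 629, 808 and 592 at 1 g/L. The highest well at 2 g/L was below the lowest at 1 g/L. The difference was -1.53 ± 0.21 (log2, SE, n = 4 each; limma adjusted p = 0.00449). Reads numbered 1111 at 2 g/L and 2732 at 1 g/L, a scaled ratio of 0.364 (counting interval 0.339 to 0.391). It was called in each of 8 fits that left out 1 library, with adjusted p up to 0.0338. It was not called without the intensity trend, with voom on the recovered reads or with reads over the size factor (limma adjusted p up to 0.154). Replicate 2, in which most of the risen genes were highest, had the lowest C17F4.7 value at 2 g/L.

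Of the 6 risen genes, replicate 2 held the highest value in 4 at 2 g/L and in 5 at 1 g/L. Since the groups of the 7 genes did not overlap, all 4 differences taken by replicate number had to have the direction of the call. They ranged from 2.05 to 2.76 for cyp-13A4, 1.41 to 2.40 for cyp-13A6, 0.94 to 1.6 for cyp-13A7 and 1.00 to 1.64 for ZK742.3. The range was 0.90 to 1.19 for apy-1, 0.76 to 1.15 for ugt-62 and -1.96 to -1.02 for C17F4.7 (log2).

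**Figure D3:**
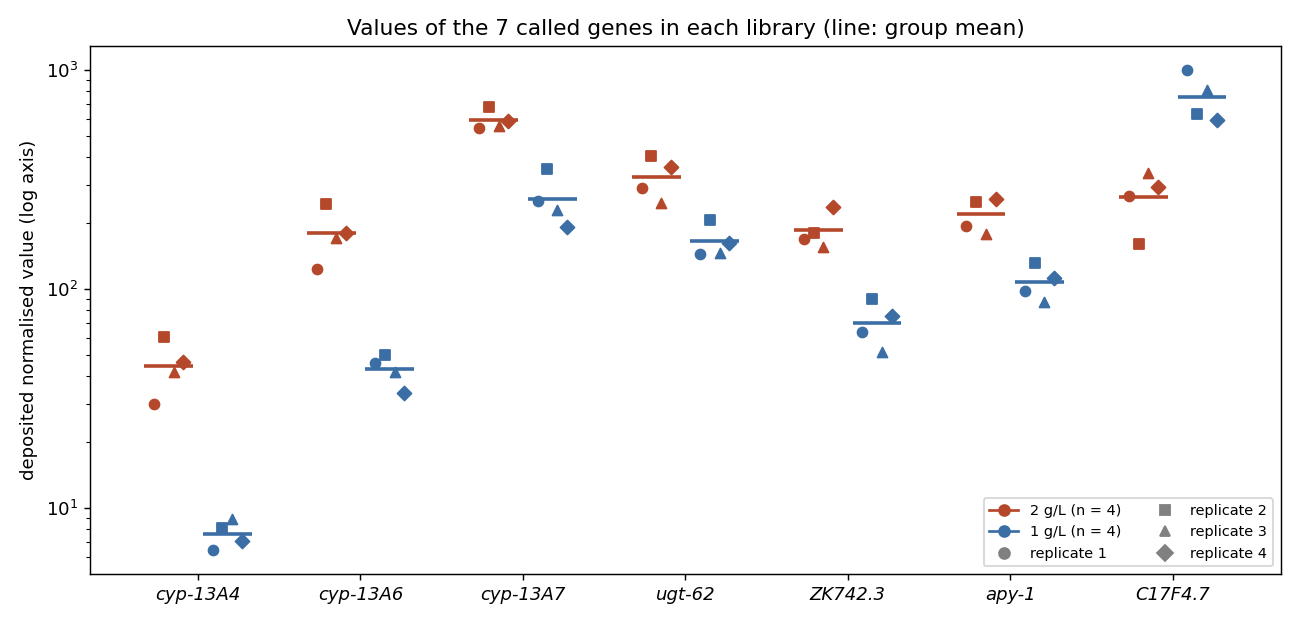
Deposited value (vertical log axis) of the 7 called genes in each library, 2 g/L left and 1 g/L right for each gene; lines are group means (n = 4) and the marker shape gives the replicate number. No gene's groups overlap: for cyp-13A4 the 2 g/L wells lie between 29.9 and 60.5 and the 1 g/L wells between 6.47 and 8.92.

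No gene outside the cyp-13A neighbours that lay within 20 kb of a called gene was called. Within 20 kb of cyp-13A4, 4 other protein-coding genes were tested, and 2 of them, cyp-13A6 and cyp-13A7, were called. Near ugt-62, 5 genes were tested with differences of -0.20 to 0.64, near ZK742.3 6 genes with -0.41 to 0.36, and near apy-1 4 genes with 0.13 to 0.49. Near C17F4.7 only 2 of 13 neighbouring protein-coding genes were tested, with -0.19 and 0.53.

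Besides gst-29, the genes of lower value with the smallest p among those not called were lipl-5, fbxa-79 and kreg-1. The gene lipl-5, of a family of lysosomal lipases, had 388, 324, 375 and 377 at 2 g/L, against 539, 438, 493 and 519 at 1 g/L. The groups did not overlap, and the difference of -0.44 ± 0.11 (log2, SE) was not called (limma adjusted p = 0.632). The F-box gene fbxa-79 had 7 reads at 2 g/L and 28 at 1 g/L, with a difference of -1.23 ± 0.28 (adjusted p = 0.279). The gene kreg-1 had 7 reads at 2 g/L and 31 at 1 g/L, with -1.19 ± 0.29 (adjusted p = 0.461).

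A spread shared by all 60 libraries of the series gave 15 calls (0.146% of 10293 tested), 14 higher (0.136%) and 1 lower (0.00972%), and included the 7 above. The 8 further genes were gst-8, cdr-1, cyp-13A5, ugt-19, pgp-1, lbp-8, T16G1.6 and T16G1.7. The last 3, ugt-19 and pgp-1 fall outside the rule for named genes and were chosen after their values were seen. T16G1.6 (chromosome V, 12935538 to 12937174) had 69.8, 200, 76 and 108 at 2 g/L, against 36.5, 49.1, 42.8 and 19.9 at 1 g/L. Its neighbour T16G1.7 (12932941 to 12935112) had 52.8, 44.0, 54.0 and 50.7 at 2 g/L, against 21.0, 34.6, 24.5 and 17.2 at 1 g/L. The groups did not overlap for either neighbour. The gene lbp-8, for a lysosomal lipid-binding protein, had 74 reads at 2 g/L and 22 at 1 g/L. The shared spread includes groups in which some of these genes had almost no reads and hardly varied. In the control, gst-8 and lbp-8 had 0 reads and SDs of 0.101 and 0.0925, against 2.57 and 5.48 at 2 g/L. For such genes the shared spread understates that at 2 g/L. The SD of T16G1.7 was 6.65 in the control and 4.47 at 2 g/L.

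On both sides of the doubling, the means of the 6 risen genes were above the control at 1 g/L and higher again at 4 g/L. In order of concentration, starting with the control and then 0.5 g/L, the means were 2.57, 12.8, 43.0, 181 and 526 for cyp-13A6. They were 2.7, 83.7, 258, 592 and 1144 for cyp-13A7. For cyp-13A4 they were 2.56, 2.84, 7.65, 44.7 and 167, from 0, 2, 22, 179 and 417 reads. Means over the same 5 levels were 61.7, 90.2, 165, 326 and 594 for ugt-62, and 19.3, 35.3, 70.2, 186 and 380 for ZK742.3. For apy-1 they were 58.9, 64.5, 108, 220 and 472.

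The gene C17F4.7 had another course. Its means were 1161 ± 421 in the control, 1158 ± 126 at 0.5 g/L, 758 ± 188 at 1 g/L, 264 ± 75.4 at 2 g/L and 262 ± 61.2 at 4 g/L (SD, n = 4 each). The doublings had log2 differences of -0.64, -1.53 and 0.01 (SE 0.20 each) in order of concentration. The 2 g/L and 4 g/L means differed by less than the spread between wells. The step from 2 to 4 g/L was higher than the step from 1 to 2 g/L by 1.54 ± 0.35 (log2, SE). This did not pass the adjustment (limma unadjusted p = 0.000218, adjusted p = 0.881). The gene was picked for its fall from 1 to 2 g/L, and this test reuses those libraries, so a positive value was favoured beforehand. The genes not called with the smallest p in the lower direction were picked for low values at 2 g/L. At 1, 2 and 4 g/L their means were 23.3, 11.8 and 11.5 for gst-29 and 497, 366 and 360 for lipl-5. They were 9.9, 3.69 and 4.05 for fbxa-79, and 9.88, 3.64 and 7.47 for kreg-1, which was higher again at 4 g/L. The gst-29 values at 4 g/L spread from 3.68 to 18.4, and its mean was 30.3 in the control and 21.5 at 0.5 g/L.

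**Figure D4:**
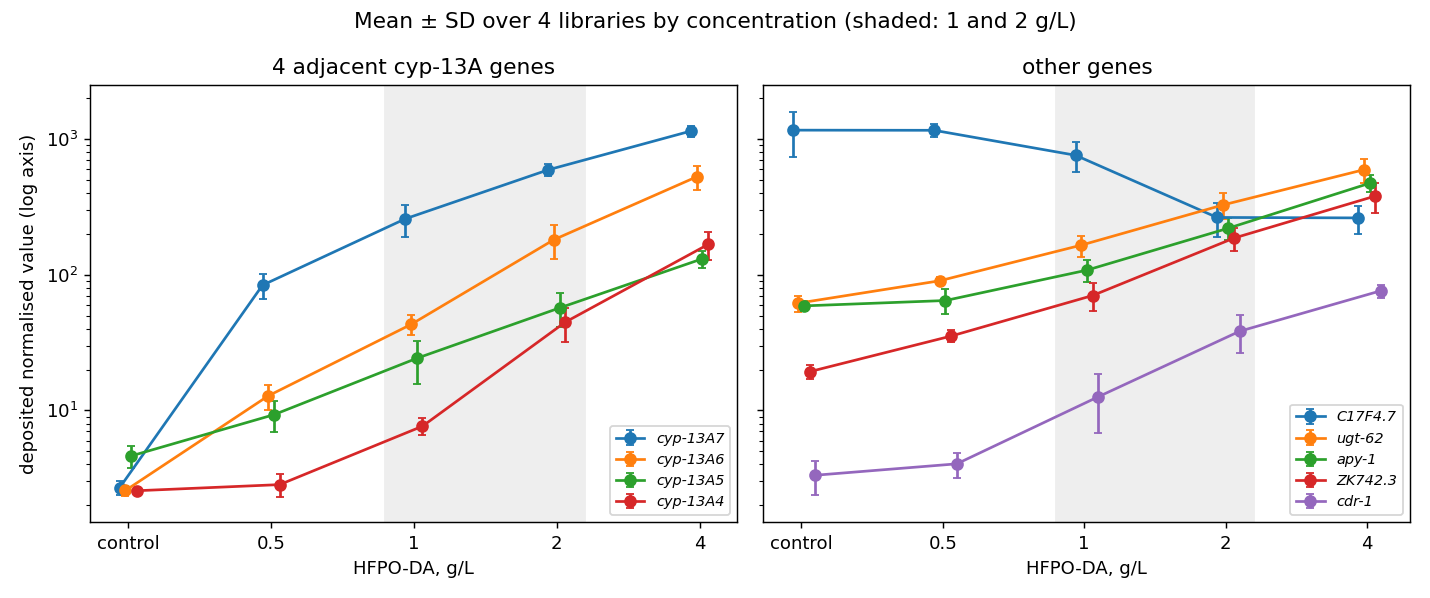
Mean deposited value with the SD (n = 4; vertical log axis) in the control and at the 4 highest concentrations in g/L (horizontal axis) for the 4 cyp-13A neighbours (left) and 5 other genes (right); shading marks 1 and 2 g/L. From 0.5 g/L upward the mean of each cyp-13A gene was higher at each further concentration, and C17F4.7 had 758 at 1 g/L, 264 at 2 g/L and 262 at 4 g/L.

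Whether the doubling from 1 to 2 g/L moved a gene differently from the doubling before or after it was tested over 16 libraries and 10286 genes. By limma, 0 genes were called for the step from 1 to 2 g/L against that from 0.5 to 1 g/L (235 genes, 2.28%, at an unadjusted p under 0.05). For the step from 2 to 4 g/L against that from 1 to 2 g/L, 0 genes were called (559 genes, 5.43%, at an unadjusted p under 0.05). Each of these tests shares the middle libraries between its steps. The steps of cyp-13A6 were 1.68, 2.02 and 1.55 (log2, SE 0.20 each) in order of concentration, those of cyp-13A7 1.6, 1.23 and 0.95 (SE 0.16), and those of ugt-62 0.85, 0.96 and 0.87 (SE 0.16). The steps of cyp-13A4 were 1.17, 2.37 and 1.89 (SE 0.24), and those of gst-8 0.19, 1.46 and 1.16 (SE 0.25). For both genes the first of these steps starts at 2 reads or fewer and is understated on this scale. The step from 1 to 2 g/L starts at 22 reads for cyp-13A4 and 4 for gst-8. It is understated as well, with scaled read ratios of 7.29 and 8.29, so the sizes of these steps cannot be compared.

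No cuticle collagen was called. Body-shape collagens form the cuticle, and their mutants are short, blistered or twisted. Of 13 measured, 10 passed the filter and 0 were called by limma. An unadjusted p under 0.05 in the higher direction was found for 4, against 2.22% of all tested genes. The 10 differences were all above 0 with a median of 0.81, against 0.01 for all genes. Genes of low level as a whole leaned upward, with a median of 0.06 over the 4063 genes between the lowest of these collagens and a value of 30. The member ram-2, with means of 146 at 2 g/L and 118 at 1 g/L, lies above this range. The gene dpy-13 had 26.9 ± 14.6 at 2 g/L and 8.51 ± 4.31 at 1 g/L (SD, n = 4 each), a difference of 1.48 ± 0.40 (log2, SE; limma adjusted p = 0.748). The gene sqt-1 was the only one without overlap, against 1.39% of all tested genes in this direction. It had 7.75 to 12.8 at 2 g/L, against 2.97 to 7.30 at 1 g/L. Summed over the 10 genes, libraries held 239, 218, 329 and 403 at 2 g/L, against 163, 206, 127 and 281 at 1 g/L, and these sums overlapped. A large part of each sum was ram-2, with 118, 121, 115 and 231 at 2 g/L, against 98.8, 112, 73.5 and 188 at 1 g/L. The overlap of the sums therefore does not describe the other members. At 4 g/L the sum over the 10 genes spread from 256 to 2499.

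Among 79 collagens named col, 0 were called by limma, the median was 0.15, and 2 genes had no overlap in each direction, against 1.39% of all tested genes in the higher and 1.15% in the lower. These were col-73 and col-138 as higher, and col-76 and col-135 as lower. The gene col-138 had 25.7 ± 5.12 at 2 g/L and 13.6 ± 5.26 at 1 g/L (SD, n = 4 each), and col-135 had 143 ± 33.4 and 200 ± 15.8 at these concentrations. Summed over the 79 genes, libraries held 152878, 114032, 124891 and 180431 at 2 g/L, against 142781, 129973, 121497 and 192084 at 1 g/L, and these sums overlapped. The abundant adult collagen col-19 had 7429 ± 1631 at 2 g/L and 7617 ± 1649 at 1 g/L.

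Proteasome subunits form the complex that degrades tagged proteins. None of 30 was called by limma, 3 had an unadjusted p under 0.05 in the lower direction (1.12% of all tested genes), 29 differences were below 0, and the median was -0.15. The subunit gene rpn-13 had 87.5 ± 4.28 at 2 g/L and 109 ± 6.01 at 1 g/L (SD, n = 4 each), without overlap. Summed over the 30 genes, libraries held 9215, 8088, 9178 and 9218 at 2 g/L, against 10347, 9168, 9809 and 9777 at 1 g/L, and the highest of the 2 g/L sums exceeded the lowest of the 1 g/L sums. Abundant genes as a whole leaned downward, with a median of -0.05 over 204 genes with a value of 1000 or more, and -0.02 over 2261 genes between 100 and 1000. The 72 ribosomal protein genes had a median of -0.04 and no call.

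No gene of the tissue lists was called. Sperm genes (77 tested) had a median of 0.10, with 64 differences above 0 and no call. Their summed values were 14237, 14167, 9867 and 23971 at 2 g/L, against 11604, 14392, 9582 and 22957 at 1 g/L, so that replicate 4 was highest and replicate 3 lowest in both groups. The first principal component put the same replicates at its ends. Oocyte and eggshell genes (42 tested) had a median of -0.09 with 3 differences above 0, and vitellogenins with their receptor (7) a median of -0.18, none called. The yolk protein gene vit-6 had 9521 ± 1063 at 2 g/L and 10144 ± 1820 at 1 g/L (SD, n = 4 each). Intestine genes (17 tested) had a median of 0.12 and summed to 7935 to 11199 at 2 g/L, against 7346 to 10228 at 1 g/L. Muscle genes (35), neuron genes (18) and hypodermis genes (9) had medians of 0.10, 0.13 and 0.12, and the germ line list (51) had 0.00. Of the 35 muscle genes, 28 differences were above 0, 2 genes had no overlap, both as higher (1.39% of all tested genes), and 3 had an unadjusted p under 0.05 in that direction (2.22%). Excretory and gland genes (14) had a median of 0.16 with 12 differences above 0, and 1 gene had no overlap. The neuron list also held 1 gene without overlap. Their part in the called differences was not tested.

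**Figure D5:**
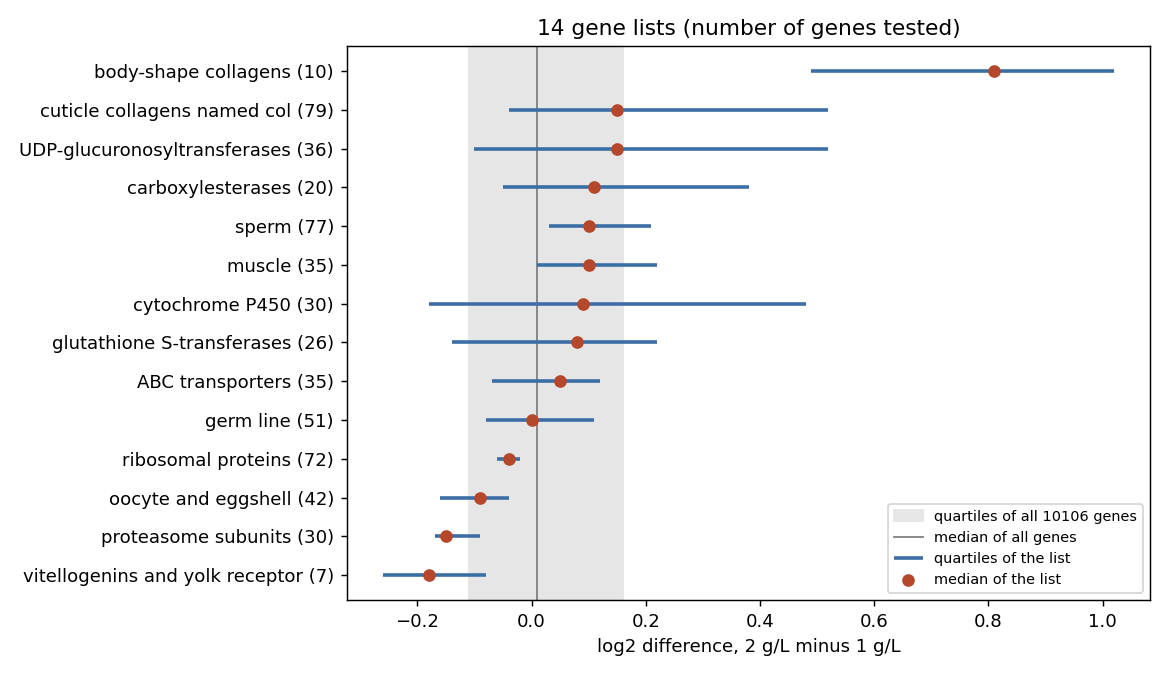
Median (points) and quartiles (lines) of the log2 difference, 2 g/L minus 1 g/L (horizontal axis), for 14 gene lists with the number of genes tested in brackets; the grey band and line give the quartiles and median of all 10106 genes. Body-shape collagens stood at 0.81 and proteasome subunits at -0.15, with 0.01 for all genes, while the P450 list had a median of 0.09 with an upper quartile of 0.48.

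Stress and lipid lists held no called gene. Medians were 0.02 for heat shock genes (14 tested), -0.04 for mitochondrial stress genes (11), -0.06 for antioxidant genes (28) and 0.10 for osmotic stress genes (20). Among antioxidant genes 3 had no overlap in the higher direction, against 1.39% of all tested genes, among them the glutathione peroxidase gene gpx-3 with 17.0 ± 1.22 at 2 g/L and 10.6 ± 4.81 at 1 g/L (SD, n = 4 each). Peroxisomal fatty acid oxidation (21 tested), mitochondrial fatty acid oxidation (24), desaturases and elongases (15), acyl-CoA synthetases (19) and lipases (11) had medians of -0.04, -0.03, 0.18, -0.02 and 0.09. Nuclear hormone receptors, ligand-gated transcription factors that control many of the enzymes above, had a median of 0.00 over 89 genes. The receptor gene nhr-13 had 13.8 ± 1.73 at 2 g/L and 8.54 ± 2.03 at 1 g/L without overlap. For nhr-45 they were 5.43 ± 1.37 and 9.31 ± 2.08 without overlap, and neither gene was called. Of the 89 genes, 2 had no overlap in the higher direction (1.39% of all tested genes) and 1 in the lower (1.15%).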

How the data were processed

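Polyadenylated RNA of whole worms was sequenced at shallow depth, per the labels' protocols. The deposited table is a normalised expression signal made by the authors, linear and without negative values, for 10298 genes and 60 libraries. Per the submitters' processing notes, the tools were STAR 2.7.10a, HTSeq 2.0.1, UMI-tools 1.1.2, edgeR 3.36.0 and Trimmomatic 0.39, used in no stated order, on WBcel235. How reads became these values is not given in the sources used here. Each value follows a scaled read number times a factor that belongs to 1 gene and 1 replicate number, which cancels between libraries of the same number. With it, 100% of 617880 values gave whole reads (tolerance 0.0001), and depth, read numbers and exact binomial 95% intervals were taken from these reads. No pair of replicates agreed within sampling noise.

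Genes with a value of at least 5 in 4 of the 8 libraries were tested as log2(value + 1) with limma 3.58.1 in R 4.3.3, with an intensity trend, 2 group means and two-sided p-values with Benjamini-Hochberg adjustment across every tested gene. A call is an adjusted p under 0.05. A fold change here is a difference of log2(value + 1), which understates the change of low genes. The steps between concentrations were tested with 4 group means over 16 libraries at 4, 2, 1 and 0.5 g/L. Symbols and coordinates were looked up by locus tag in the WBcel235 annotation for 10294 of 10298 genes. The fits and the recovery of reads were tested on simulated data.

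The members, 47 gene lists, tests and rule for named genes were chosen with earlier results of these data known. The rule takes all called genes where a direction holds 20 or fewer, up to 3 called members of each list or else its member with the highest mean, and the 4 genes not called with the smallest p in each direction. Values are printed for part of these, and further genes named in the text were chosen after their values were seen. Tables and plots were made in Python 3.11.15 (pandas 2.3.3, numpy 2.4.6, scipy 1.17.1, matplotlib 3.10.9). Genome sequence was not used here.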

Additional observations from a re-analysis of the deposited data

Results flagged for a closer look

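Of 102 groups of 4 libraries, for 51 genes with values in the text, 1 held a library far from the others, where chance gives about 1 in 20. The nuclear hormone receptor gene nhr-13 had 16.4 in replicate 3 at 2 g/L, against 12.6 to 13.2 in the other libraries at that concentration. All 4 values were above those at 1 g/L, and the gene was not called.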

How the results depend on the processing

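Under the 22 alternatives to the comparison of 2 g/L with 1 g/L, no called gene turned its direction. The genes cyp-13A4 and cyp-13A6 were called in 22 of 22, cyp-13A7 and ZK742.3 in 21, C17F4.7 in 19, apy-1 in 13 and ugt-62 in 11. The 7 calls became 15 with the spread of all 60 libraries, with or without a replicate block, 14 with 16 libraries, 2 without the intensity trend (cyp-13A4 and cyp-13A6), and 4 each with voom on the recovered reads and with reads over the size factor, where C17F4.7, apy-1 and ugt-62 were not called. With voom and the replicate block, all 3 of these genes were called. The cause of these differences was not tested. Leaving out 1 library gave 5 to 8 calls, quantile normalization gave 5, and a filter at a value of 20 gave 6. Pseudocounts of 5 and 0.1, no filter and median ratio rescaling gave 7. Voom and reads over the size factor were chosen after seeing the data. The edgeR and DESeq2 alternatives were not run, since the deposited values are not counts. Of 81 named genes not called, 13 passed the threshold under at least 1 alternative. The 1 g/L values of gst-8 and ugt-15 rest on 4 and 3 reads in all.

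Replicate numbers were not taken to pair the wells: deviations of same-numbered wells correlated by 0.06, 0.22, 0.43 and 0.40 for replicates 1 to 4, not all above 0.1, and 6 of 8 libraries correlated best with their own number. With the number as a replicate block, limma gave 29 calls, 22 higher and 7 lower, including the 7, and voom with the replicate block gave 30. Among the 29 were lipl-5 (adjusted p = 0.00735), gst-5 (0.00021), cyp-13A5 (0.000263), cdr-1 (0.000557), gst-8 (0.00989) and ugt-19 (0.000283). List members made up 17 of the 29 calls with the block and 4 of the 7 without it. The share of all tested genes that belong to the lists is not given here. The lists were chosen with earlier results of these data known, so these counts are no result about the lists. For the step from 2 to 4 g/L against that from 1 to 2 g/L, 1 gene was called with the replicate block, against 0 without it. It was C17F4.7 (1.54 ± 0.26, log2, SE, limma adjusted p = 0.0369). Its fall from 1 to 2 g/L was called on libraries that this test reuses, so a positive value was favoured beforehand.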
